A study of Rattus norvegicus with 12 samples.

Results

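The genes described here handle the calcium of the heartbeat in the sarcoplasmic reticulum, the internal calcium store of muscle cells, and at the membranes next to it. The 10 genes were Atp2a2, Pln, Sln, Ryr2, Trdn, Casq2, Casq1, Hrc, Jph2 and Slc8a1. All single-symbol probe sets that the array annotation gives to these genes were taken, 22 of 31042 tested, so that all 10 genes of the 14217 named on the array were measured. Atp2a2 had 5 probe sets, Trdn 4, Pln 3, and Ryr2, Casq2 and Slc8a1 had 2 each.

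Transcripts were measured on 12 Affymetrix arrays. The RNA came from the appendages of both atria of male Sprague-Dawley rats (225 to 275 g), taken at day 28 after surgery that was either a sham operation or an aorto-caval shunt. Such a shunt joins the aorta to the vena cava and loads the heart with volume. The 2 chambers and 2 operations made 4 groups of 3 arrays. Each array held a pool of 2 tissues, so the tests here rest on how pools of a group vary, and the labels do not say whether right and left pools shared animals.

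In a cardiomyocyte a small entry of calcium through the surface membrane opens the ryanodine receptor, which releases far more calcium from the store, and the cell contracts. Relaxation follows when a pump returns the calcium to the store and an exchanger carries the rest out of the cell. Atrial cells are known for a high level of sarcolipin and for a calcium cycle that is faster than that of the ventricle.

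The tissue label, one entry of which names ventricles beside atria, was checked against marker genes. The atrial genes Myl7 (14.06 to 14.27) and Nppa (14.37 to 14.43) lay near the top of the log2 scale on every array. Ventricular markers were present and unequal: the mean of 6 of them lay at 7.39 to 7.58 on right atrium sham arrays and 7.86 to 8.80 on right atrium shunt arrays. It lay at 5.71 to 6.03 on left atrium sham arrays and 6.30 to 6.66 on left atrium shunt arrays. Of the 6, Myl2 differed most, with means of 10.94 in right and 5.26 in left atrium sham. After the shunt its means were 12.37 in the right and 5.99 in the left atrium. In sham 4 of the 6 were called lower and 0 higher in the left atrium, and after the shunt 4 and 1. The mean of 9 general cardiomyocyte genes lay at 12.86 to 12.99 on the right arrays and 12.99 to 13.15 on the left. Smooth muscle markers were higher in the left atrium, 5 of 7 in each operation, with a mean of 7.48 to 7.68 on right and 7.96 to 8.07 on left arrays. The mean of 7 fibroblast markers lay at 10.90 to 11.04 on right and 10.87 to 11.23 on left arrays. In sham 3 of the 7 were called higher and 1 lower in the left atrium, with a median difference of -0.07. Their differences ran from -0.31 to 1.17, the highest that of the collagen gene Col1a1 (adjusted p = 9.1e-06). After the shunt 2 were called higher and 2 lower, with a median of -0.24. The mean of 7 macrophage markers lay at 7.16 to 7.25 on right atrium sham and 7.71 to 7.78 on right atrium shunt arrays, where 3 of them were called higher. On the left arrays it lay between 6.91 and 7.48. The 3' control probe set of beta-actin exceeded its 5' one, a gap that widens when RNA is degraded or labelled copies are short, by 1.58 to 2.03 on the right arrays and 1.14 to 1.39 on the left, without overlap. The GAPDH difference was 0.32 to 0.40 on the right and 0.18 to 0.28 on the left. Replicate 3 of left atrium shunt was the array least like its group (mean correlation 0.9895 with its replicates, against 0.9923 to 0.9967 for the other arrays). The part of these markers, of RNA quality and of that array in the results below was not tested, except where values without the array are given. In bulk tissue, fewer cells of a type and less RNA per cell cannot be told apart.

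On their brightest probe sets, Trdn, Pln, Casq1 and Slc8a1 were lower in the left atrium and Jph2 was higher, in sham and in shunt animals alike. The dimmer probe set of Slc8a1 was higher there, and no other probe set of Trdn was called lower in both operations. Atp2a2, Casq2, Hrc and Ryr2 did not pass the test with the probe set of highest mean level, which stands for a gene below, and neither did Sln. In sham animals 12 of the 22 probe sets passed an adjusted p of 0.05 (limma), 3 higher and 9 lower in the left atrium. After the shunt 9 passed, 2 higher and 7 lower. The chambers differed over the whole array: 36.1% of all probe sets passed in sham (20.1% higher, 16.1% lower) and 37.7% after the shunt (20.2% higher, 17.4% lower). The members' shares were 54.5% and 40.9%, the second close to that of the array. Most member probe sets are bright, however. With dim probe sets left out, 53.1% of all probe sets passed in sham and 52.8% after the shunt. The members' sham share is therefore not read as a trait of these genes. Counted by gene, 5 of 10 passed in each operation, 1 higher and 4 lower. Of all genes 37.6% passed in sham (22.2% higher, 15.4% lower) and 40.5% after the shunt (21% higher, 19.4% lower). The median log2 difference of the 10 genes was -0.09 in sham, where the median of all genes was 0.04.

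**Figure D1:**
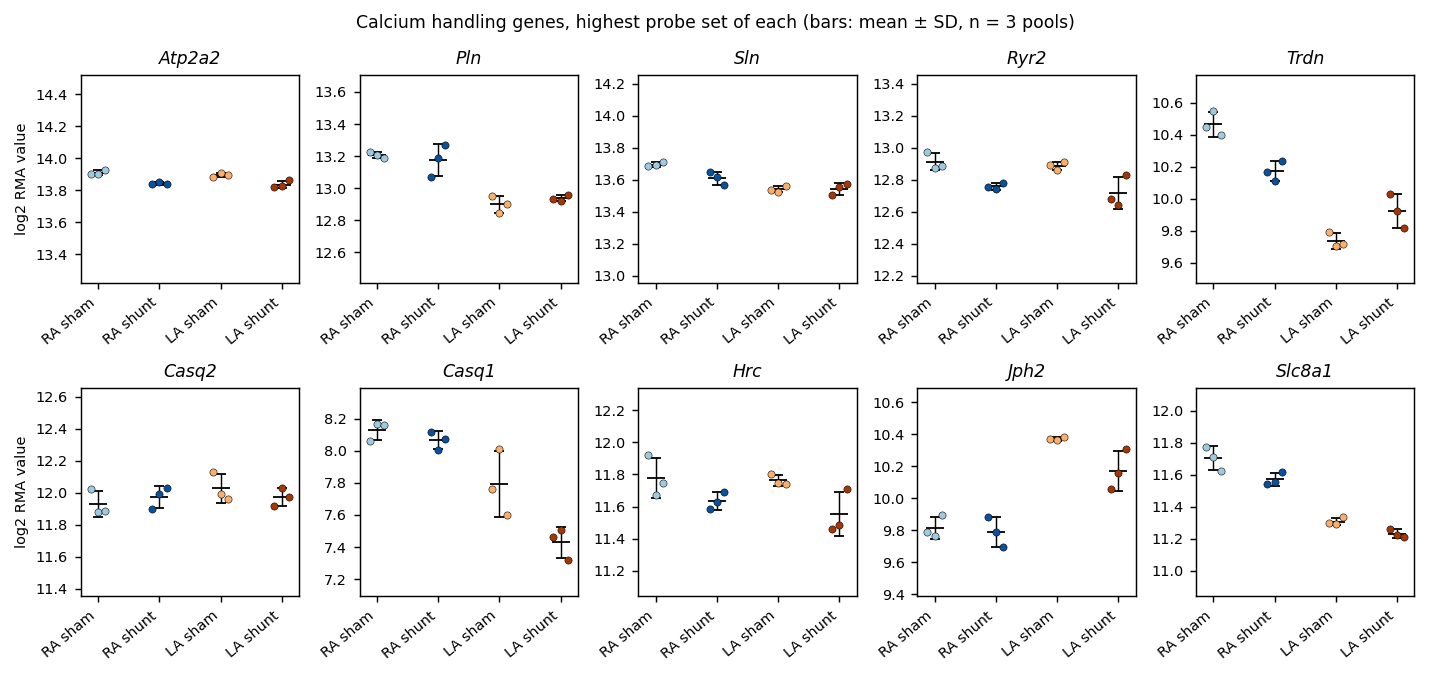
Log2 RMA value (y axis, the same span in each panel) of the probe set of highest mean of each gene on each array, by group (RA right atrium, LA left atrium); points are pools, lines and bars the mean ± SD of 3. Trdn, Pln, Casq1 and Slc8a1 sit lower in the left than in the right atrium, Jph2 sits higher, and Atp2a2 stays between 13.82 and 13.93 on all 12 arrays.

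As examples of members that differed between the chambers, the promoters of Pln and Trdn, lower in the left atrium, and of Jph2, higher there, are shown; Casq1 and Slc8a1 differed too and are not printed. They come from RefSeq (build GRCr8), run from 250 bases before to 50 after the start, and carry each E-box in capitals (CANNTG, the motif of basic helix-loop-helix factors, searched on both strands).
Pln, chr20:33172244-33172543, plus strand: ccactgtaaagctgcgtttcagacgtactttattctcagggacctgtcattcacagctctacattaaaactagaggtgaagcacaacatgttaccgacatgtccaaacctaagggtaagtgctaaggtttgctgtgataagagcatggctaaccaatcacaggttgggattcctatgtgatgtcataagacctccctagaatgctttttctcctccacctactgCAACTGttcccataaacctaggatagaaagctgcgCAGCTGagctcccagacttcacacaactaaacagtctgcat
Trdn, chr1:26229550-26229849, minus strand: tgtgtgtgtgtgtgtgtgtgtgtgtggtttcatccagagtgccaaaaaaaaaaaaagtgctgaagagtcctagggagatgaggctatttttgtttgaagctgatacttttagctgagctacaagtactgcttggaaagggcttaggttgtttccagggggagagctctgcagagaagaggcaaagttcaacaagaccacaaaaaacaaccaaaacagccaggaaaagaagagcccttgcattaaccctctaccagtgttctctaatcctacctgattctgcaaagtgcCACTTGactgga
Jph2, chr3:172477872-172478171, minus strand: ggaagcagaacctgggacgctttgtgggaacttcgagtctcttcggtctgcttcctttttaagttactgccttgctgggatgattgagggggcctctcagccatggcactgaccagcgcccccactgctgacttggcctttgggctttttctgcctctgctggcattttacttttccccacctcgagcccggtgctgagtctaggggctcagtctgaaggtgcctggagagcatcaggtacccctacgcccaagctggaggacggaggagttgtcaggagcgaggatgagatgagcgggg
Pln holds E-boxes that start at bases -26 and 10 and Trdn holds 1 that starts at base 39, while Jph2 holds none in this window. Of the 9 members with an entry in the table, 7 held an E-box, against 71.6% of 27457 promoters. On neither strand did any of the 9 hold the GATA factor motif in the spelling AGATAA (11.3% of promoters), a MEF2 box (0.605%) or a CArG box (1.64%). Other spellings of the GATA motif were not searched, so their absence is not shown.

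The reuptake genes came first in the comparison. Atp2a2 encodes SERCA2, the pump that refills the store. Its brightest probe set read 13.90, 13.90 and 13.93 in right atrium sham and 13.88, 13.91 and 13.90 in left atrium sham. After the shunt it read 13.84, 13.85 and 13.84 in the right and 13.82, 13.83 and 13.86 in the left atrium. The chambers overlapped in both operations, and the left minus right log2 difference averaged over them was -0.01 (95% interval -0.10 to 0.08, adjusted p = 0.84). This probe set lies at percentile 99.97 of all mean levels, where array values are compressed, so small differences could be hidden. Of its other 4 probe sets, 1391771_at (mean 5.65, near the array median of 5.46) was lower in the left atrium in sham by -0.87 ± 0.15 (SE, adjusted p = 0.000696), and 1398862_at by -0.43 ± 0.16 (adjusted p = 0.0476). The latter did not pass when any 1 of the 6 sham arrays or of the 3 right atrium shunt arrays was left out (adjusted p 0.0603 to 0.12), nor with array medians subtracted (0.0503) or with the trend and robust options (0.0723). The mean of the 5 probe sets differed by -0.30 in sham (adjusted p = 0.00829). After the shunt 1391771_at differed by -0.29 and 1398862_at by -0.07, and neither passed (limma, adjusted p = 0.155 and 0.748). The probe sets 1370426_a_at and 1375164_at did not pass in either operation.

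Pln encodes phospholamban, which restrains SERCA2 until it is phosphorylated. Its brightest probe set read 13.23, 13.21 and 13.19 in right atrium sham against 12.95, 12.85 and 12.90 in left atrium sham. After the shunt the values were 13.07, 13.19 and 13.27 in the right and 12.93, 12.92 and 12.96 in the left atrium. All right arrays lay above all left arrays. The left minus right difference was -0.31 ± 0.07 in sham (SE, n = 3 pools per group, adjusted p = 0.00394), a 1.24-fold lower level, and -0.24 ± 0.07 after the shunt (adjusted p = 0.0167). Without right atrium shunt replicates 2 or 3 the latter did not pass (adjusted p 0.0505 and 0.0701). The second bright probe set of Pln, 1388876_at, differed by -0.26 in sham (adjusted p = 0.0103) and -0.29 after the shunt (adjusted p = 0.00556). Of the 6 ventricular markers 4 were called lower in the left atrium in sham, and their part in the Pln difference was not tested. Its remaining probe set, 1384689_at, lay at 3.81 to 4.25, below the array median. It differed by -0.29 in sham (adjusted p = 0.0272), a call lost without right atrium sham replicates 1 or 2 or left atrium sham replicates 1 or 3 (adjusted p 0.076 to 0.104). After the shunt it differed by 0.03 and did not pass (limma, adjusted p = 0.803).

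Sln encodes sarcolipin, a small atrial inhibitor of SERCA. It read 13.68, 13.69 and 13.71 in right atrium sham and 13.53, 13.53 and 13.56 in left atrium sham. Those groups did not overlap, and the difference was -0.15 ± 0.06 (SE, adjusted p = 0.0677). After the shunt the values were 13.65, 13.62 and 13.57 in the right and 13.50, 13.55 and 13.58 in the left atrium, which overlapped (difference -0.07, adjusted p = 0.417). Sln lies at percentile 99.94 of mean levels. Its sham difference passed in 4 alternatives, among them the fit without dim probe sets (adjusted p = 0.028).

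The release genes followed. Ryr2 encodes the cardiac ryanodine receptor, the calcium release channel. Its brightest probe set read 12.97, 12.87 and 12.89 in right atrium sham and 12.89, 12.86 and 12.91 in left atrium sham, which overlapped. The left minus right difference was -0.02 in sham (95% interval -0.17 to 0.13, adjusted p = 0.83) and -0.04 after the shunt (-0.19 to 0.11, adjusted p = 0.674). Its second probe set, 1382775_at, gave another picture. It read 11.39, 10.86 and 11.01 in right atrium sham against 10.12, 10.38 and 10.34 in left atrium sham, and 11.10, 11.13 and 11.04 against 10.17, 9.69 and 9.68 after the shunt. All 6 right arrays lay above all 6 left arrays. That difference was -0.81 ± 0.15 in sham (adjusted p = 0.0011) and -1.24 ± 0.15 after the shunt (adjusted p = 6.8e-05), 2.37-fold lower in the left atrium.

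Trdn encodes triadin, which anchors calsequestrin to the release channel. Its brightest probe set, 1370198_at, read 10.45, 10.55 and 10.40 in right atrium sham and 9.80, 9.70 and 9.72 in left atrium sham. After the shunt it read 10.17, 10.11 and 10.24 in the right and 10.03, 9.92 and 9.82 in the left atrium. The gap between the chambers was wide in sham and narrow after the shunt, with no overlap in either. The left minus right difference was -0.72 ± 0.08 in sham (SE, adjusted p = 1.93e-05), 1.65-fold lower, and -0.25 ± 0.08 after the shunt (adjusted p = 0.023). The latter did not pass without left atrium shunt replicates 2 or 3 or right atrium shunt replicates 1 or 3 (adjusted p 0.0519 to 0.0807), nor as the mean of its probe sets (-0.08, adjusted p = 0.322). A dimmer probe set, 1371138_at, differed by -0.40 after the shunt (adjusted p = 0.0155), and did not pass without left atrium shunt replicate 3 (adjusted p = 0.0539) or right atrium shunt replicate 2 (0.0638). Another, 1370739_x_at, went the other way, by 0.22 ± 0.08 averaged over both operations (adjusted p = 0.0267). The suffix of its name marks probes that can bind other transcripts, and it lost its call in 5 of 12 exclusions of an array, without left atrium sham replicate 1, left atrium shunt replicate 3, right atrium sham replicates 2 or 3 or right atrium shunt replicate 1 (adjusted p 0.0512 to 0.0688).

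Casq2 encodes cardiac calsequestrin, the main calcium buffer of the store. Its brightest probe set lay between 11.88 and 12.13 on all 12 arrays, the chambers overlapped, and the averaged difference was 0.05 (95% interval -0.07 to 0.16, adjusted p = 0.478). The other, 1387401_at, read 11.39, 11.33 and 11.34 in right atrium sham and 12.03, 11.61 and 11.63 in left atrium sham, without overlap. It was higher in the left atrium in sham by 0.40 ± 0.11 (adjusted p = 0.0112), and by 0.29 ± 0.11 after the shunt, where it did not pass (adjusted p = 0.0533). It passed there in 6 alternatives, among them without left atrium sham replicate 1 (adjusted p = 0.0147) or replicate 2 (0.0491).

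Casq1 encodes the calsequestrin of fast skeletal muscle. It read 8.06, 8.17 and 8.16 in right atrium sham, 8.12, 8.01 and 8.07 in right atrium shunt, 7.76, 8.01 and 7.60 in left atrium sham and 7.46, 7.51 and 7.32 in left atrium shunt. Every left array lay below every right array of the same operation. The left minus right difference was -0.34 ± 0.10 in sham (adjusted p = 0.0166) and -0.64 ± 0.10 after the shunt (adjusted p = 0.000374). The sham call was lost without left atrium sham replicate 3 or right atrium sham replicates 2 or 3 (adjusted p 0.0511 to 0.0748). Of 11 measured skeletal muscle markers 2 were called higher and 0 lower in the left atrium in sham (differences -0.05 to 0.74), and 4 and 0 after the shunt (-0.12 to 0.61). Their mean lay at 4.68 to 4.77 on right and 4.89 to 5.01 on left arrays, and their part in the Casq1 difference was not tested. Hrc, which encodes a histidine-rich calcium-binding protein of the store, read 11.92, 11.67 and 11.74 in right atrium sham and 11.80, 11.75 and 11.74 in left atrium sham. The chambers overlapped, and the averaged difference was -0.05 (95% interval -0.18 to 0.08, adjusted p = 0.528).

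At the junction, Jph2 encodes junctophilin 2, which holds the store against the surface membrane. It read 9.79, 9.76 and 9.90 in right atrium sham and 10.37, 10.36 and 10.38 in left atrium sham. After the shunt it read 9.89, 9.79 and 9.69 in the right and 10.06, 10.16 and 10.30 in the left atrium. All left arrays lay above all right arrays. The difference was 0.56 ± 0.08 in sham (SE, adjusted p = 0.000195), a 1.47-fold higher level, and 0.38 ± 0.08 after the shunt (adjusted p = 0.00288). Jph2 was the only member whose brightest probe set was called higher in the left atrium.

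For calcium removal, Slc8a1 encodes NCX1, the sodium-calcium exchanger of the surface membrane. The brighter of its probe sets, 1372449_at, read 11.78, 11.71 and 11.63 in right atrium sham and 11.30, 11.29 and 11.33 in left atrium sham. After the shunt it read 11.54, 11.56 and 11.62 against 11.26, 11.23 and 11.21. It was lower in the left atrium by -0.39 ± 0.07 in sham (adjusted p = 0.000493) and -0.34 ± 0.07 after the shunt (adjusted p = 0.00158). The dimmer one, 1370588_a_at, ran in the opposite direction. It read 5.71, 5.76 and 5.81 in right atrium sham, 5.71, 5.94 and 5.98 in right atrium shunt, 7.39, 7.29 and 7.49 in left atrium sham and 7.42, 7.29 and 6.47 in left atrium shunt. It was higher in the left atrium by 1.63 ± 0.19 in sham (adjusted p = 3.46e-05), 3.1-fold, and by 1.18 ± 0.19 after the shunt (adjusted p = 0.000462). Left atrium shunt replicate 3 was the lowest left array, and without it the latter was 1.48. The chambers did not overlap for either probe set. As the mean of both probe sets, the sham difference of Slc8a1 was 0.62 (adjusted p = 0.000567), so the direction for the gene depends on the probe set.

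**Figure D2:**
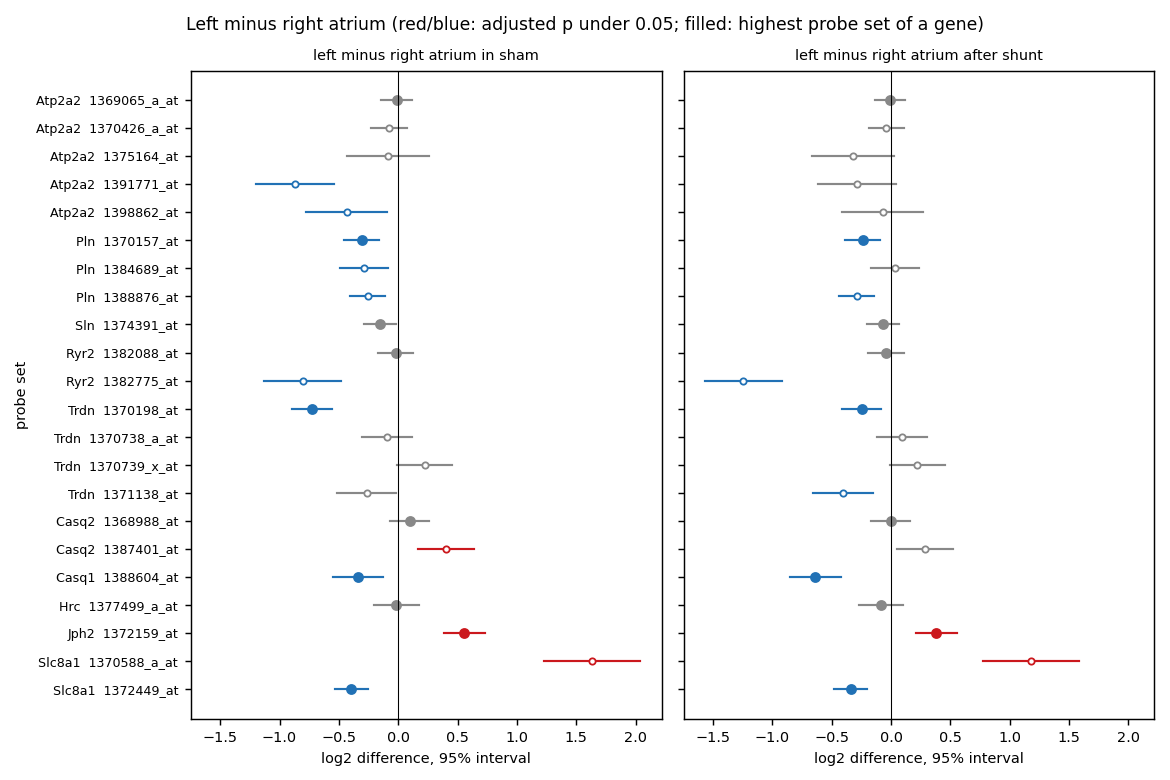
Left minus right log2 difference (x axis, with 95% interval) of each of the 22 probe sets (y axis) in sham and after the shunt. Red and blue mark probe sets called higher and lower in the left atrium, filled points the probe set of highest mean of a gene; the probe sets of Slc8a1 lie on opposite sides of 0.

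Whether the probe sets of a gene differed in their chamber difference was tested on each array as the log2 ratio of a pair, 6 left against 6 right arrays, with a two-sided exact permutation test adjusted over the 22 pairs of the 6 genes with several probe sets. The test was chosen after these values were known. For Slc8a1 the left minus right differences were 1.41 and -0.37, apart by 1.77 (exact permutation p = 0.00216, the smallest it can give, adjusted 0.00595). For Ryr2 they were -0.03 and -1.03, apart by 0.99, and for the Casq2 pair 0.05 and 0.34, apart by -0.30, each at the same exact permutation p. The Trdn probe sets 1370198_at and 1370739_x_at were apart by -0.71, again at that p. The same p held for 1370198_at and 1370738_a_at of Trdn (-0.49) and for its 1370739_x_at and 1371138_at (0.56). In Atp2a2, 1369065_a_at and 1370426_a_at were apart from 1391771_at by 0.57 and 0.52, each also at that p. The bright pair of Pln gave the same value on both, -0.27 (exact permutation p = 0.983). Each of these gaps had the same sign within sham and within shunt arrays, except that of the Pln pair, which was -0.05 and 0.05.

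Opposite calls within a gene occurred across the array. Of 4525 genes with several probe sets, 7.91% had calls in both directions between the chambers in sham and 13.5% when averaged over the operations. Among the 6 members with several probe sets, Slc8a1 did in sham, and Slc8a1 and Trdn when averaged. Where the probes lie along the transcripts was not analysed here. The 3' minus 5' differences of beta-actin and GAPDH moved with the chamber, and their part in these gaps was not tested.

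**Figure D3:**
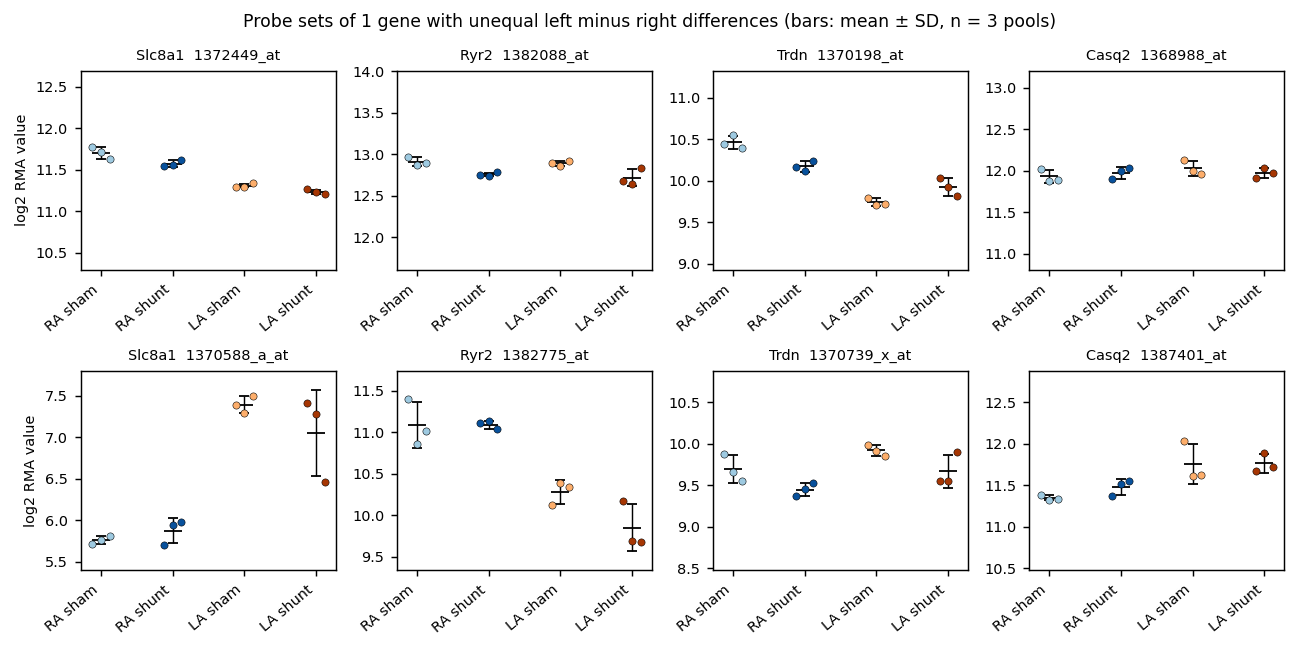
Log2 RMA values (y axis, the same span in each panel) on each array by group for a pair of probe sets (upper and lower row) of Slc8a1, Ryr2, Trdn and Casq2; points are pools, lines and bars the mean ± SD of 3. In each column the step from right to left atrium differs between the upper and the lower panel, and for Slc8a1 and Trdn it turns direction.

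The shunt comparisons asked what volume overload changed in each chamber. No probe set of the 10 genes passed in either atrium or in the average over both (limma). In the right atrium, the left atrium and the average, 2.97%, 0.751% and 3.86% of all probe sets did. At an unadjusted p under 0.05 there were 4 of 22 in the right atrium, 8 in the left and 7 averaged, against 19.7%, 13.6% and 17.9% of all probe sets. Averaged over the atria, 19 of 22 differences lay below 0, against 51.7% of all probe sets, with a median of -0.09. The changes ranged from -0.37 to 0.13 in the right atrium and from -0.44 to 0.21 in the left, on the log2 scale. In the right atrium 9 of 22 had groups of arrays that did not overlap, 8 of them lower, where 28.4% of all probe sets did and 13.5% were lower. In the left atrium it was 8 of 22, 7 of them lower, where 16.9% of all probe sets did and 9.21% were lower. These counts move together where probe sets share a gene. All 7 macrophage markers had values above 0 in the right atrium (0.38 to 0.74), and their part in the members' differences was not tested. Of the 6 ventricular markers 4 were called higher and 0 lower with the shunt in the right atrium (-0.01 to 1.48). The part of these was not tested either.

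The brightest probe set of Ryr2 went from 12.97, 12.87 and 12.89 to 12.75, 12.74 and 12.78 in the right atrium and from 12.89, 12.86 and 12.91 to 12.68, 12.64 and 12.83 in the left. In each atrium all shunt arrays lay below all sham arrays. The differences were -0.15 ± 0.07 and -0.17 ± 0.07, and the average was -0.16 ± 0.05 (SE, 95% interval -0.27 to -0.06, adjusted p = 0.0941). It passed in 4 alternatives, among them the fit without left atrium shunt replicate 3 (-0.19, adjusted p = 0.0342). Its second probe set changed by 0.00 in the right atrium and -0.44 in the left (adjusted p = 0.995 and 0.215).

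Hrc gave -0.14 in the right and -0.21 in the left atrium, with an average of -0.18 ± 0.06 (adjusted p = 0.138), and passed without left atrium shunt replicate 3 (-0.22, adjusted p = 0.0404). Without that array 4 member probe sets passed in the average over the atria, where 6.5% of all probe sets did: the brightest of Ryr2, that of Hrc, 1370739_x_at of Trdn and 1398862_at of Atp2a2. Atp2a2 itself changed by -0.07 in the right and -0.06 in the left atrium, with no overlap of groups in either and an averaged interval of -0.15 to 0.03 (adjusted p = 0.482). Of the pump regulators, the brightest probe set of Pln changed by 0.00 (95% interval -0.10 to 0.11) and Sln by -0.04 (-0.13 to 0.05) in the average. In the right atrium all Sln shunt arrays lay below its sham arrays (-0.08, limma adjusted p = 0.487). Sln lies near the top of the range, where values can be compressed. The second bright probe set of Pln, 1388876_at, was higher by 0.12 in the average (0.01 to 0.22, adjusted p = 0.214). It passed with the trend and robust options (adjusted p = 0.0331), and its groups did not overlap in the right atrium (0.13).

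Trdn had the smallest adjusted p among the 22 probe sets in the right atrium. In the right atrium its brightest probe set went from 10.46 ± 0.08 to 10.17 ± 0.06 (SD, n = 3), a difference of -0.29 ± 0.08 (SE, adjusted p = 0.0611). It passed in 6 alternatives, among them without dim probe sets (adjusted p = 0.0332) and without left atrium shunt replicate 3 (adjusted p = 0.0389). In the left atrium it went from 9.74 ± 0.05 to 9.92 ± 0.11 (SD, n = 3), a difference of 0.19 ± 0.08 (SE, adjusted p = 0.307). All shunt arrays lay below the sham arrays in the right atrium and above them in the left. The left minus right difference of these effects was 0.48 ± 0.11 (unadjusted p = 0.00077 from limma, adjusted p = 0.141), where 0.0258% of all probe sets passed, none of them a member. The other two probe sets with an unadjusted p under 0.05 there were 1391771_at of Atp2a2 (0.58) and 1384689_at of Pln (0.32), both near or below the array median. The beta-actin 3' minus 5' difference was 1.91 to 2.03 on right atrium shunt and 1.58 to 1.82 on right atrium sham arrays, and its part was not tested.

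Casq1 changed by -0.06 in the right atrium and -0.36 ± 0.10 in the left (adjusted p = 0.118), where its shunt arrays lay below its sham arrays. Jph2 changed by -0.02 and -0.20, and Slc8a1 by -0.13 and -0.08 on its brighter probe set, all with adjusted p above 0.2. Casq2 changed by 0.04 and -0.06. None of these shows that a gene did not respond: the 95% intervals of the brightest probe sets of the 10 genes reached from -0.46 to 0.21 in the right and from -0.57 to 0.35 in the left atrium.

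**Figure D4:**
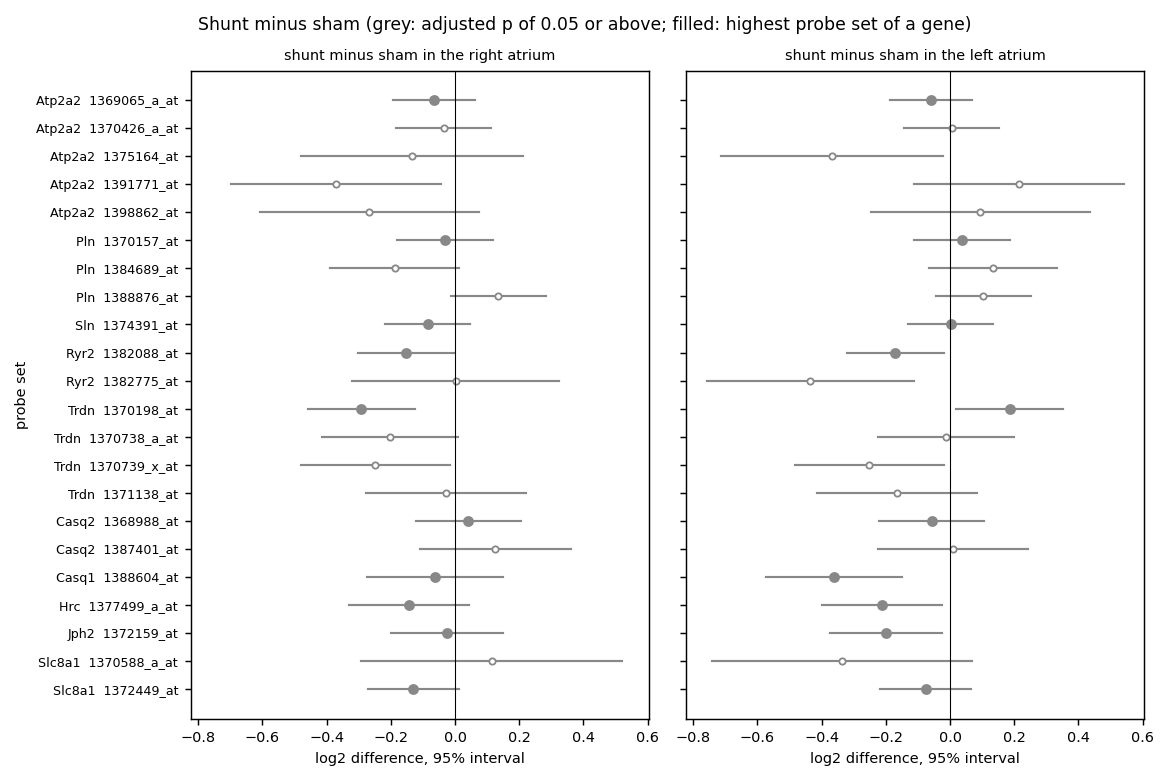
Shunt minus sham log2 difference (x axis, with 95% interval) of each of the 22 probe sets (y axis) in the right and the left atrium, filled points for the probe set of highest mean of a gene. All points are grey, since none passed an adjusted p of 0.05, and 17 of 22 lie below 0 in the right and 13 of 22 in the left atrium.

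Likeness between the members was described with Pearson's r between their brightest probe sets over the 12 arrays, which share the chamber difference. Pln, Trdn and Slc8a1 formed one set (r 0.884 to 0.918 between them), and Jph2 ran against it (-0.924 with Pln and -0.903 with Trdn). Ryr2 and Hrc formed another (0.942), joined by Atp2a2 (0.874 with Ryr2 and 0.767 with Hrc). With group means removed, Ryr2 and Hrc still moved together from pool to pool (0.894, and 0.792 without left atrium shunt replicate 3, an alternative chosen after seeing the data). The within-group r of Atp2a2 and Ryr2 was 0.424 and turned to -0.477 without that array. Jph2 and Sln had 0.900 within groups but -0.652 over the arrays. Over all genes above the array median, 9349 of them, the gene most like Hrc was Ryr2, and the genes most like Ryr2 were Rcbtb2 (0.962), Hrc and Rdm1 (0.926). Nearest to Slc8a1 were Tp53bp2 (0.991), Rnf139 (0.987) and Sox6 (0.986), and nearest to Jph2 were Ube2e2 (0.992), Flot2 (0.987) and Cdip1 (0.986). Nearest to Trdn was Gfra3 (0.976), to Pln Chd6 (0.964), to Sln Chchd1 (0.952), to Casq1 Tpr (0.958), to Atp2a2 Piwil2 (0.934) and to Casq2 Ckmt2 (0.838).

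**Figure D5:**
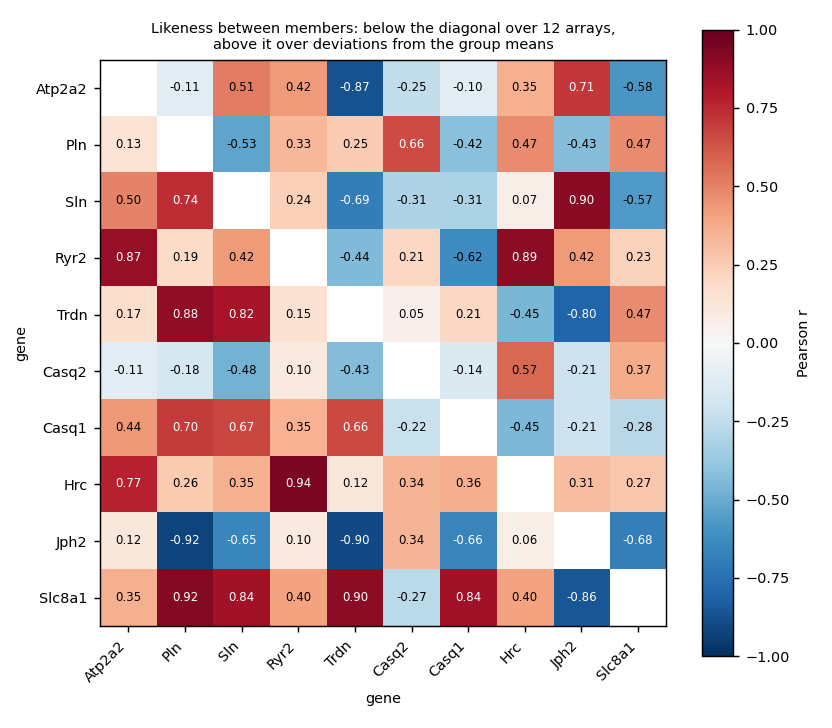
Pearson r between the probe sets of highest mean of the 10 genes, below the diagonal over 12 arrays and above it over deviations from the 4 group means (colour scale from -1 to 1). Ryr2 and Hrc are alike in both (0.942 and 0.894), while Pln, Trdn and Slc8a1 are most alike over the arrays.

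Other genes of the calcium cycle were counted in lists, 1 probe set per gene. Of 21 measured genes of the junction and release complex outside the members, 10 were higher and 2 lower in the left atrium in sham, and 9 higher and 3 lower after the shunt, against 37.6% and 40.5% of all genes in either direction. Among those higher in sham were S100a1, a calcium sensor that binds the release channel and the pump (0.66 ± 0.13, adjusted p = 0.00194), and Tmem38a, a potassium channel of the store (0.53 ± 0.09, adjusted p = 0.000473). Bin1, which shapes the transverse tubules, was 0.51 ± 0.16 higher (adjusted p = 0.0231) and the caveolin gene Cav3 0.49 ± 0.10 (adjusted p = 0.00154). After the shunt Selenon, an oxidoreductase of the store, was 0.49 ± 0.08 higher (adjusted p = 0.000561) and Jsrp1, which encodes a junctional protein, 0.49 ± 0.10 (adjusted p = 0.0031). For the shunt, 3.97% of all genes passed in the right atrium, 0.935% in the left and 5.25% in the average. In these comparisons 1 gene of this list passed, Jph1, the junctophilin known from skeletal muscle, which fell by 0.36 in the left atrium (adjusted p = 0.0356).

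Of 16 genes of calcium entry, 4 were higher and 3 lower in the left atrium in sham, a share near the 37.6% of all genes. After the shunt 6 were higher and 3 lower, where 40.5% of all genes passed. Stim1, the calcium sensor of the store, was 1.15 ± 0.08 higher in sham (adjusted p = 1.09e-06) and 0.78 ± 0.08 after the shunt, with the same direction on its other 2 probe sets. Its partner Orai1, the channel that Stim1 opens, was 0.79 ± 0.10 higher in sham (adjusted p = 5.34e-05). The T-type channel gene Cacna1h was lower by -1.14 ± 0.11 in sham (adjusted p = 7.3e-06), and after the shunt its dim second probe set was higher by 0.50 (adjusted p = 0.000443). Gem, a GTPase that inhibits calcium channels, was lower by -0.66 ± 0.16 in sham (adjusted p = 0.00598). After the shunt Cacna2d1, an accessory channel subunit, was lower by -0.66 ± 0.08 (adjusted p = 7.22e-05). Orai2 fell by 0.35 from sham to shunt in the right atrium (adjusted p = 0.038), where its dim second probe set gave 0.28 (adjusted p = 0.126). Cacna1d rose by 0.56 in the left atrium (adjusted p = 0.0274), which its 2 dim probe sets did not pass.

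Of 18 other pumps, exchangers and luminal proteins, 5 were higher and 2 lower in the left atrium in sham, and 6 and 2 after the shunt. These shares were near the 37.6% and 40.5% of all genes. None passed for the shunt in either atrium (limma). Calr, the luminal buffer calreticulin, was 0.74 ± 0.09 higher in sham (adjusted p = 5.81e-05), Mcu, the mitochondrial calcium uniporter, 0.53 ± 0.17 (adjusted p = 0.0306) and Atp2b4, a surface membrane pump, 0.41 ± 0.11 (adjusted p = 0.00844). After the shunt Atp2b1, another surface membrane pump, was lower by -0.93 ± 0.10 (adjusted p = 2.49e-05) while another of its probe sets was higher by 0.49 (adjusted p = 0.00408), so that its direction too depends on the probe set. In the same comparison Slc8b1, the mitochondrial sodium-calcium exchanger, was 0.42 ± 0.13 higher (adjusted p = 0.0266) and Atp2c1, a Golgi pump, lower by -0.60 ± 0.16 (adjusted p = 0.0116), while the other 2 probe sets of Atp2c1, both dim, gave 0.07 and -0.12 and did not pass (adjusted p = 0.704 and 0.179).

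Of 25 kinases, phosphatases and related genes of the cycle, 5 were higher and 7 lower in the left atrium in sham, and 6 and 8 after the shunt, where 37.6% and 40.5% of all genes passed. Prkaca, the catalytic subunit of protein kinase A, which phosphorylates phospholamban, was 1.52 ± 0.13 higher in sham (adjusted p = 3.29e-06) and 1.37 ± 0.13 after the shunt (adjusted p = 1.23e-05). Camk2b was 0.60 ± 0.16 higher in sham (adjusted p = 0.0105), and Ppp1cb, a catalytic subunit of protein phosphatase 1, was lower by -0.60 ± 0.09 (adjusted p = 0.000236). Camk2a was lower by -1.08 ± 0.28 in sham (adjusted p = 0.0088), with another, dim probe set higher by 0.38 (adjusted p = 0.0266). After the shunt Ppp3ca, a catalytic subunit of calcineurin, was lower by -0.52 ± 0.07 (adjusted p = 0.00017), with another probe set higher by 0.23 (adjusted p = 0.0163). Prkar2b, a regulatory subunit of protein kinase A, was lower by -0.54 ± 0.13 (adjusted p = 0.00474). In the shunt comparisons Prkacb rose by 0.28 in the right atrium (adjusted p = 0.0424), while its other 2 probe sets gave 0.14 and 0.07 and did not pass (adjusted p = 0.625 and 0.733). Ppp1r1a, which encodes inhibitor 1 of protein phosphatase 1, fell by 0.36 in the average over both atria (adjusted p = 0.00789), with -0.33 in the right and -0.39 in the left, where it did not pass alone (adjusted p = 0.0657 and 0.0717). A second, dim probe set of Ppp1r1a gave -0.07 in the average (adjusted p = 0.635).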

How the data were processed

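The values deposited by the authors are log2 expression levels of probe sets with a column for each array, and RMA is the method that the submitters' processing notes name; its version is not given in the sources used here. RMA subtracts background, equalises the arrays' distributions and summarises probes, and values near the top of the range can be compressed (array medians 5.44 to 5.47, highest value 14.43). All 12 columns belonged to a sample, grouped by title. The 57 control probe sets were left out. Of the others 20826 had 1 gene in the supplied array annotation, 436 several (never used for a name) and 9780 none, with symbols updated through RefSeq gene IDs (GRCr8).

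With limma 3.58.1 in R 4.3.3, the 4 group means were estimated from all arrays and moderated by eBayes, with no filter. Tests were two-sided, with Benjamini-Hochberg adjustment over 31042 probe sets and a threshold of 0.05. Differences are log2, with the SE of the fit. The script was checked on simulated data.

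The members and lists were chosen with earlier results of these data known, so their counts are descriptions. Named by rule were all members and, per list and comparison, up to 4 called genes by size, using the brightest probe set of each, of which a part is given; the 3 genes most alike were listed for each member, of which a part is given. Alternatives changed the filter on dim probe sets, the scaling (quantile or median), the moderation (trend and robust), the weighting of arrays, the arrays that enter a fit (only those compared, or each array left out), the summary of a gene (brightest probe set, or mean) and the use of replicate numbers as a block. Same-numbered arrays were checked for pairing and not treated as pairs.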

Additional observations from a re-analysis of the deposited data

Results flagged for a closer look

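The shunt effect on the brightest Trdn probe set ran in opposite directions in the atria, with every shunt array below the sham arrays in the right atrium and above them in the left. The left minus right difference of the effects was 0.48 ± 0.11 on the log2 scale (SE). Tested as an interaction in limma it did not pass over all probe sets (adjusted p = 0.141). The other probe sets of Trdn did not repeat the rise in the left atrium. There 1370739_x_at changed by -0.25, 1370738_a_at by -0.01 and 1371138_at by -0.17, so the opposite directions hold for the brightest probe set only.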

How the results depend on the processing

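Between the chambers, 8 of the 12 probe sets called in sham, 5 of 9 after the shunt and 10 of 12 in the average kept their direction and their call under every alternative run. In the average 50.2% of all probe sets and 52.8% of all genes passed in the main setting, near the members' 54.5% of probe sets. With the mean of all probe sets of a gene in place of the brightest, Slc8a1 turned to 0.62 in sham, 0.42 after the shunt and 0.52 in the average. Then 9 of 10 genes passed in sham and in the average instead of 5, where 40.8% and 55.9% of all genes passed. After the shunt 3 genes passed when only the groups compared were fitted. For the shunt in the right atrium, 1 probe set, that of Trdn, passed without dim probe sets, with quantile normalization again, with the trend and robust options, with array weights and with 1 probe set per gene. In the average over the atria, 1 probe set passed without dim probe sets, where 9.72% of all probe sets did. With trend and robust options 4 passed (2 genes), where 5.01% of all did, and with array weights 2 (1 gene), where 6.01% did. The cause of these changes was not tested.

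Leaving out 1 array at a time gave 9 to 12 probe sets (4 to 5 genes) in sham, 7 to 10 (3 to 5 genes) after the shunt, and 11 to 12 (5 genes) in the chamber average. For the shunt it gave 0 to 1 in the right atrium, 0 in the left and 0 to 4 in the average (0 to 2 genes). No interaction passed. Without right atrium shunt replicate 3, 3 genes passed after the shunt. Same-numbered right and left arrays of an operation had correlations of their deviations from 0.079 to 0.148, not all above 0.1, and the numbers were not treated as pairs. Same-numbered arrays of the other pairs of groups had lower values, from -0.1 to 0.073. Whether right and left pools shared animals or handling was not tested. With the replicate number as a block, 11 probe sets passed in sham, 9 after the shunt, 12 in the average and 0 for the shunt. The block joined arrays of the same number from all 4 groups, sham and shunt together. It therefore did not test a pairing of right and left pools within an operation. The probe set lost in sham under the block was 1398862_at of Atp2a2 (adjusted p = 0.0521). The share of all probe sets called ranged over the alternatives from 29.0 to 53.1% in sham, 28.7 to 52.8% after the shunt, 0.477 to 7.58% for the shunt in the right atrium and 0.0419 to 2.49% in the left. It was 45.8 to 65.2% in the chamber average and 2.16 to 9.72% for the shunt averaged over the atria. With 3 pools per group precision is limited.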
